A study of Mus musculus with 6 samples.

Results

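The cytoplasmic ribosomal protein genes encode the proteins of the large and the small subunit of the ribosome that translates nuclear mRNAs. They were selected by name: protein-coding mouse genes called Rpl or Rps plus a number, with an optional letter or paralog suffix, together with Rplp0, Rplp1, Rplp2 and Rpsa. This gave 84 of the 56953 genes in the count tables, 52 of the large and 32 of the small subunit. Of these, 77 are the standard genes of the ribosome and 7 are paralogs with a related sequence. Kinases of the Rps6k family, Rps19bp1 and pseudogenes were not members, and Rps4l was not analysed here. The low-count filter kept 82 of the 84; Rpl3l and Rpl10l did not pass it.

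Each ribosome holds a near-equal number of copies of almost all of these proteins, and cells make them together. Their mRNAs are short, very abundant and usually begin with a C followed by a run of pyrimidines, the 5′ terminal oligopyrimidine (TOP) motif, through which mTORC1 and the RNA-binding protein LARP1 control their translation and storage. Ribosome production is a large expense of growing cells, and in NK cells IL-2 drives both growth and division. NK cells are lymphocytes that kill infected or transformed cells without prior sensitisation.

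The hypoxia group held 3 libraries from NK cells of the spleen of wild-type C57BL/6 mice, cultured for 7 days at 1% oxygen. The normoxia group held 3 libraries from the same kind of cells cultured for 7 days at 20% oxygen. Both groups received recombinant human IL-2 at 1700 U/ml throughout and were kept under 5% CO2, so every value below comes from IL-2-driven cultures and not from resting NK cells. The labels call the libraries biological replicates 1 to 3 and do not say whether these are separate mice or separate cultures, so each p-value reflects only how far these libraries spread, and this spread may be technical.

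Total counts were between 55104810 and 55794698 per library. The markers of NK cells were present in all libraries, with Gzmb at 11744 CPM (counts scaled to the library total) in hypoxia and 11992 CPM in normoxia on average, and the summed level of 10 NK cell markers was 17175 to 20090 CPM in hypoxia and 18862 to 20691 CPM in normoxia; Eomes and Klre1 were called lower and none higher, and 6 were lower and 2, Nkg7 and Tbx21, higher with the replicate block. Markers of other cells were low: 8 T cell markers summed to 256 to 276 CPM in hypoxia and 177 to 219 CPM in normoxia, and Cd3d, Cd3g and Cd4 were called higher. The 6 macrophage and monocyte markers summed to 50.8 to 83.6 CPM in hypoxia and 15.5 to 29.2 CPM in normoxia. Most of this was Cd68, which averaged 61.9 CPM in hypoxia and 16.4 CPM in normoxia; Cd68 and Lyz2 were called higher and Cd14 lower, and Adgre1 was near 0. The 6 B cell markers reached at most 1.25 CPM in hypoxia and 0.706 CPM in normoxia. The 6 neutrophil markers reached at most 1.91 CPM in hypoxia and 0.305 CPM in normoxia, and Retnlg was at 0. The 5 dendritic cell markers reached at most 0.854 CPM in hypoxia and 0.381 CPM in normoxia, and Cd209a and Clec9a were at 0. The 6 erythroid and platelet markers reached at most 0.438 CPM in hypoxia and 0.181 CPM in normoxia. The 5 stromal markers summed to 192 to 210 CPM in hypoxia and 234 to 282 CPM in normoxia. Nearly all of this was Pecam1, which averaged 202 CPM in hypoxia and 257 CPM in normoxia and was called lower. The tested B cell, neutrophil and dendritic cell markers, Cd79b, S100a8, S100a9 and Xcr1, were all called higher, at averages of at most 0.988 CPM. The part of these marker shifts in the ribosomal protein values was not tested.

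Ribosomal protein mRNAs were lower as a group in hypoxic NK cells. The 84 genes held 6.08%, 6.55% and 6.89% of all counts in hypoxia replicates 1, 2 and 3, against 7.32%, 7.59% and 8.02% in normoxia replicates 1, 2 and 3. Every hypoxia library lay below every normoxia library. The mean share was 6.51% ± 0.408 in hypoxia and 7.64% ± 0.352 in normoxia (SD, n = 3 each), a difference of -1.14 percentage points. A two-sided exact permutation test over the libraries gave p = 0.1, the smallest value that 3 against 3 libraries allow. Between libraries of the same replicate number the difference was -1.24, -1.04 and -1.13 points for numbers 1, 2 and 3. These are shares of each library's mRNA. Less ribosomal protein mRNA per cell, more of other mRNAs and another mix of cells cannot be told apart.

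**Figure D1:**
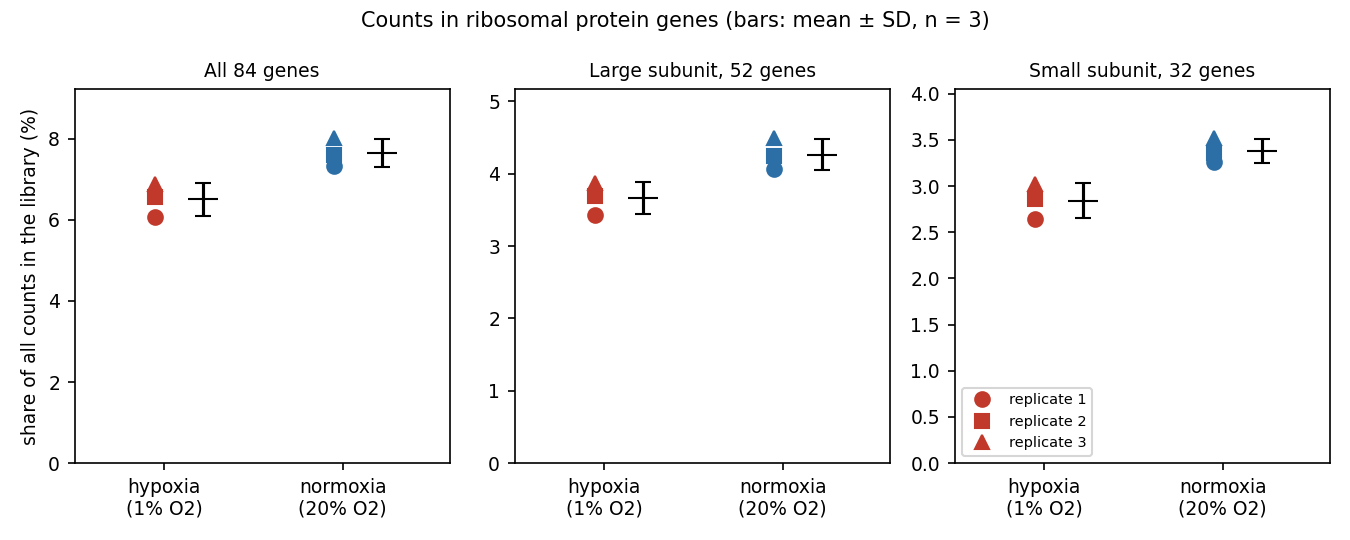
Share of all counts (%, y axis) held by all 84 ribosomal protein genes, by the large and by the small subunit, in hypoxia and normoxia libraries; each symbol is a library and the bars are mean ± SD (n = 3). In all panels the 3 hypoxia libraries lie below the 3 normoxia libraries, by 1.14 points for all genes on average.

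Both subunits contributed to the lower share. Large subunit genes held 3.66% ± 0.218 of the counts in hypoxia and 4.26% ± 0.218 in normoxia, a difference of -0.60 points. Small subunit genes held 2.84% ± 0.190 in hypoxia and 3.38% ± 0.133 in normoxia (SD, n = 3 each), a difference of -0.54 points. The exact permutation p was 0.1 for each subunit.

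Gene by gene, edgeR's quasi-likelihood test with Benjamini-Hochberg adjustment over all 15591 genes tested called 39 of the 82 tested members lower in hypoxia and 0 higher, at an adjusted p under 0.05. Over all genes tested, 9.72% were called lower and 11.2% higher. At an unadjusted p under 0.05, 63 members passed, against 33.6% of all genes tested, and the DESeq2 Wald test also called 0 members higher. The log2 fold change of hypoxia over normoxia was below 0 in 81 of the 82 members, against 50.8% of all genes tested, and its median was -0.29 over the members and -0.01 over all genes tested. In 56 members every hypoxia library was below every normoxia library, a pattern found in 18.7% of all genes tested, and in 0 members every hypoxia library was above, a pattern found in 19.6% of them.

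The decreases were small and alike. The 39 called members fell by between 16.3% and 31.2%, with standard errors of 0.07 to 0.12 on the log2 scale. The large subunit had 22 of 50 tested members called, with a median log2 fold change of -0.29, and the small subunit had 17 of 32, with a median of -0.32. When the model took replicate numbers as a block, 75 members were called lower and 1, Rps27l, higher, against 20.0% and 19.2% of all genes tested. The count of members called lower was 10 without hypoxia replicate 2, 18 without hypoxia replicate 1 and 23 without normoxia replicate 3, and in the same fits 5.05%, 6.45% and 7.72% of all genes tested were called lower. It was 25 when libraries were scaled by their size alone, under which 6.40% of all genes were called lower and 15.3% higher and the median of all genes was 0.08.

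**Figure D2:**
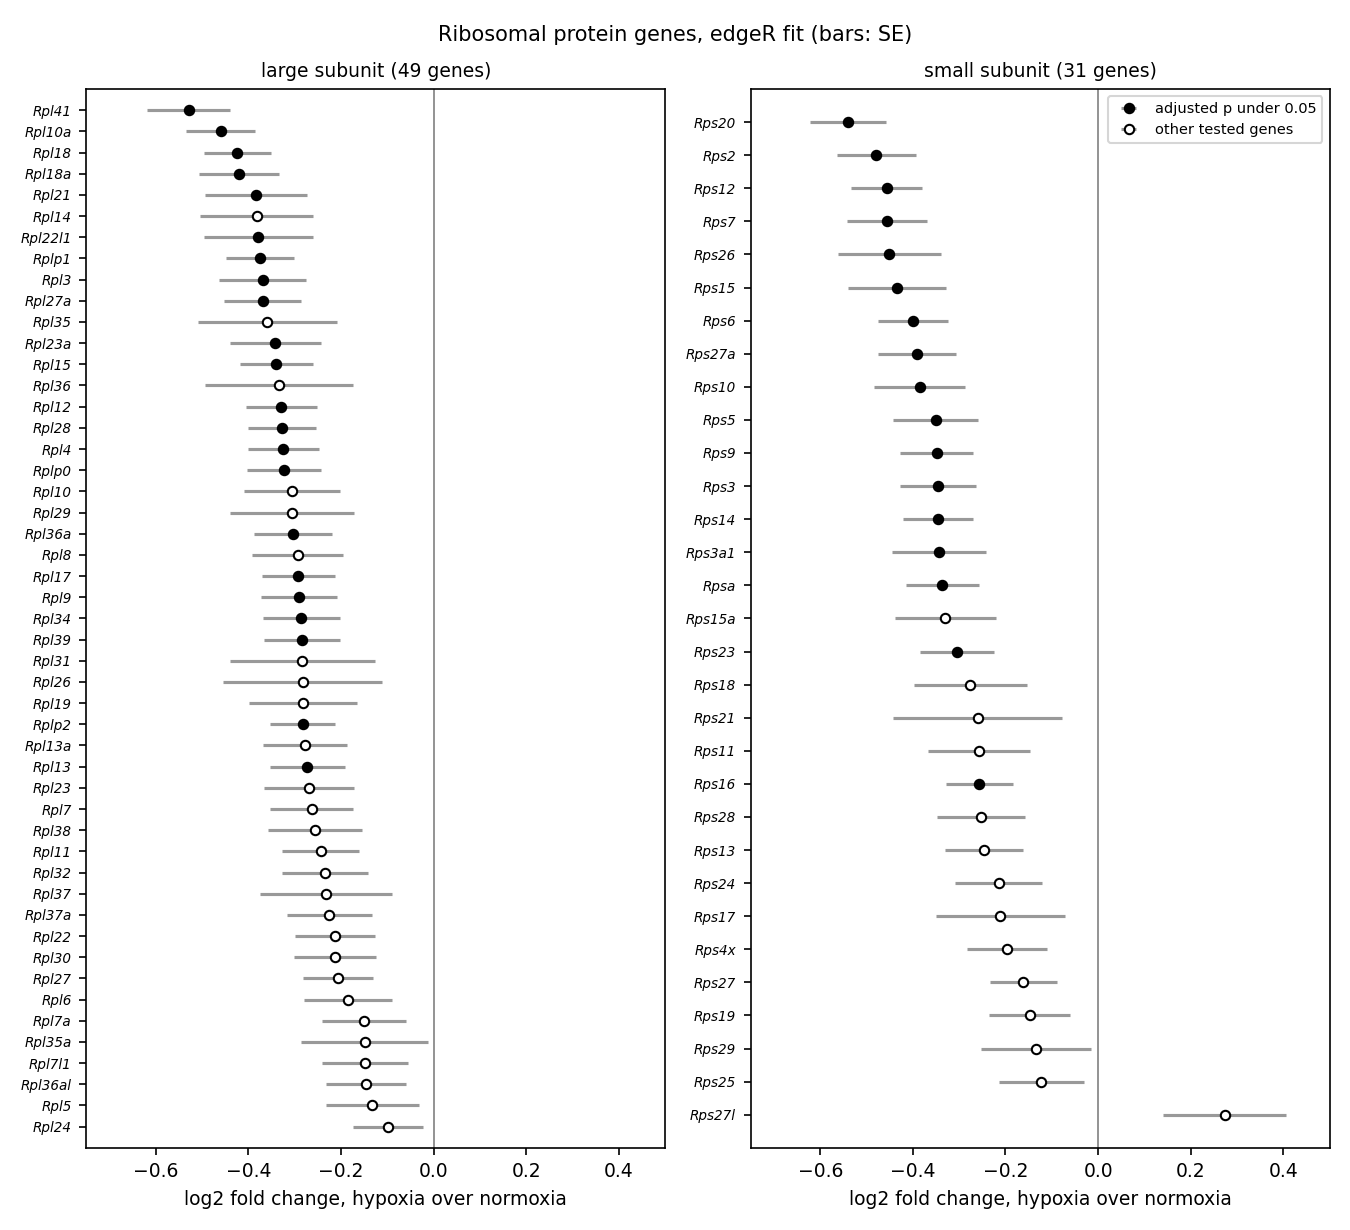
Log2 fold change of hypoxia over normoxia (x axis) of each ribosomal protein gene from the edgeR fit, large subunit left and small subunit right; bars are standard errors and filled points passed an adjusted p of 0.05. Not every gene is drawn, and Rpl39l, under 1 CPM in every library, is among those left out. All points drawn but Rps27l lie left of 0, and the decreases run from -0.54 in Rps20 to -0.10 in Rpl24.

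Other abundant or short transcripts give a scale for these values. Among 297 other genes averaging over 400 CPM, the median log2 fold change was -0.09 and 19.2% were called lower. Only members were left out of this set. It still holds pseudogenes of members, such as Gm10275 and Gm15500, and related genes such as Rack1 and Eef1a1, so it is not independent of the members. Among 2234 other genes with transcripts under 1000 bases it was -0.03, with 11.6% called lower. Across the 82 members the fold change had a Spearman correlation of -0.14 with transcript length and of -0.27 with mean level, given as descriptions over genes that share the same 6 libraries.

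The 8 largest decreases among called members were in Rps20, Rpl41, Rps2, Rpl10a, Rps12, Rps7, Rps26 and Rps15, of which 6 belong to the small subunit. Rps20, a protein of the head of the small subunit, had 414, 431 and 480 CPM in hypoxia, against 637, 623 and 667 CPM in normoxia. The groups were well separated. Its log2 fold change was -0.54 ± 0.08 (SE), with an adjusted p by edgeR of 0.00159.

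Rps2, which lines the site where mRNA enters the small subunit, was the third most abundant member per kilobase of transcript. It had 2139, 2150 and 2382 CPM in hypoxia, against 3299, 2900 and 3098 CPM in normoxia. The ranges did not overlap, and the log2 fold change was -0.48 ± 0.08 (SE; adjusted p by edgeR = 0.00358). Rps3, its neighbour at the entry site and also part of the head, averaged 1454 ± 60.1 CPM in hypoxia and 1847 ± 134 CPM in normoxia (SD, n = 3 each; adjusted p by edgeR = 0.0158), a call lost without hypoxia replicate 2 (0.0913; 0.000443 to 0.0913 over all alternatives).

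Rpl41 encodes a very short and basic peptide that bridges the subunits. It had 744, 703 and 805 CPM in hypoxia, against 1186, 1005 and 1059 CPM in normoxia. The groups were again apart, and the log2 fold change was -0.53 ± 0.09 (SE; adjusted p by edgeR = 0.00302). Rpl10a, of the mobile L1 stalk near the site where spent tRNA leaves, had 374, 389 and 368 CPM in hypoxia, against 494, 541 and 522 CPM in normoxia, again with no overlap (log2 fold change -0.46 ± 0.07, SE; adjusted p by edgeR = 0.00223).

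Rps12, of the beak of the small subunit's head, had 549, 569 and 610 CPM in hypoxia, against 783, 769 and 819 CPM in normoxia. Its log2 fold change was -0.46 ± 0.08 (SE; adjusted p by edgeR = 0.00271). Rps7, a small subunit protein needed for processing of the 18S rRNA precursor, had 878, 840 and 928 CPM in hypoxia, against 1303, 1103 and 1221 CPM in normoxia, a log2 fold change of -0.46 ± 0.09 (SE; adjusted p by edgeR = 0.0052). In both genes the hypoxia libraries lay apart from and below the normoxia libraries.

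Rps26, at the site where mRNA leaves the small subunit, had 562, 674 and 759 CPM in hypoxia, against 872, 883 and 974 CPM in normoxia. Rps15, of the small subunit's head, had 713, 854 and 912 CPM in hypoxia, against 1046, 1082 and 1220 CPM in normoxia. In both, replicate 1 was the lowest library of its group, and the groups did not overlap. The log2 fold changes were -0.45 ± 0.11 for Rps26 and -0.43 ± 0.11 for Rps15 (SE), with adjusted p by edgeR of 0.0179 and 0.0174. Both lost their call without hypoxia replicate 1 (adjusted p = 0.0518 and 0.0576), hypoxia replicate 2 (0.0678 and 0.0597) or normoxia replicate 3 (0.0569 and 0.057), within a range over all alternatives of 0.000146 to 0.0678 for Rps26 and 0.000105 to 0.0597 for Rps15. The other 6 of these 8 genes passed the threshold in every alternative run.

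The start regions of 7 of these 8 genes are shown because their mRNAs moved together and the TOP motif sits at the transcript start. Those of Rplp0, which anchors the stalk, and of the paralog Rps27l, whose fold change was positive, are set beside them. Rpl10a and Rps27l have 2 starts in the table, of which the first is given. Each line gives the sense strand, 5′ to 3′, from 60 bases before to 20 bases from the RefSeq transcript start (build GRCm38.p6), and capitals mark, where either lies in these bases, a C followed by at least 4 bases that are each C or T and starting within 5 bases of the start, or the motif CTTCCG in either orientation (CGGAAG), the core of ETS-family sites.
Rpl41 (chr10:128549149-128549228, minus strand): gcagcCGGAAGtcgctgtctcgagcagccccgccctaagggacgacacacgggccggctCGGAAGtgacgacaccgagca
Rps2 (chr17:24720003-24720082, plus strand): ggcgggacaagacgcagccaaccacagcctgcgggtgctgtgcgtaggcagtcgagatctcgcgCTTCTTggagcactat
Rpl10a (chr17:28328411-28328490, plus strand): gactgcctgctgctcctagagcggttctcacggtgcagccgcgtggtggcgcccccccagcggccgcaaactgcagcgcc
Rps12 (chr10:23787190-23787269, minus strand): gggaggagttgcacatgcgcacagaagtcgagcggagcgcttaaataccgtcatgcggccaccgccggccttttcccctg
Rps7 (chr12:28635934-28636013, minus strand): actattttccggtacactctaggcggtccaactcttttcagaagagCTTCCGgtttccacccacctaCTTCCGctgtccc
Rps26 (chr10:128626487-128626566, minus strand): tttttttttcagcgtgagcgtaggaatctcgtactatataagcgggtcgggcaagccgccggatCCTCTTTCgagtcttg
Rps15 (chr10:80292371-80292450, plus strand): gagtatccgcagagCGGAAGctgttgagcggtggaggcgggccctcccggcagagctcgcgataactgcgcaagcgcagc
Rplp0 (chr5:115559407-115559486, plus strand): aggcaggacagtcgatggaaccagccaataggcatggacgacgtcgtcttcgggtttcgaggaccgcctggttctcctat
Rps27l (chr9:66946026-66946105, plus strand): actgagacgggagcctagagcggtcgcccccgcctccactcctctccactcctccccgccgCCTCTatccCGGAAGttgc

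The lines of Rpl10a, Rps12 and Rplp0 hold neither motif. Of the 84 members, 64 had a start region in the RefSeq table. The pyrimidine run at the start was found in 29 of the 64 (45.3%), against 21.2% of the 27025 genes in the table. CTTCCG or CGGAAG within the 300 bases around the start was found in 43 of the 64 (67.2%), against 18.8% of all genes in the table. Ribosome biogenesis factors held it in 24 of 41 (58.5%), so it was not particular to the members. They held the pyrimidine run in 7 of 41 (17.1%). Both motifs were also counted by call: the pyrimidine run in 51.7% of 29 called and 42.4% of 33 tested but not called members, and CTTCCG in 69.0% of called and 69.7% of not called ones. RefSeq starts can differ from the start used in these cells by several bases, and a match of letters is not a measured site.

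In the large subunit, the stalk that recruits the GTP-using translation factors is built from Rplp0, which anchors it, and the acidic proteins Rplp1 and Rplp2. All of them were lower in hypoxia. Rplp0 had 1966, 1891 and 2075 CPM in hypoxia, against 2551, 2318 and 2551 CPM in normoxia (log2 fold change -0.32 ± 0.08, SE; adjusted p by edgeR = 0.0182). Rplp1 had 1014, 981 and 975 CPM in hypoxia, against 1312, 1224 and 1315 CPM in normoxia (-0.37 ± 0.07; adjusted p by edgeR = 0.00601). Rplp2 had 537, 552 and 540 CPM in hypoxia, against 673, 660 and 649 CPM in normoxia (-0.28 ± 0.07; adjusted p by edgeR = 0.018). None of the 3 genes overlapped between the groups. Rplp1 kept its call in every alternative, whereas Rplp0 lost it without hypoxia replicate 1 or 2 or normoxia replicate 3 (adjusted p = 0.0549, 0.109 and 0.0513) and Rplp2 on leaving out any single hypoxia library or normoxia replicate 2 and when scaled by library size alone (adjusted p between 0.0522 and 0.0826), over ranges of 0.000494 to 0.109 and 0.000235 to 0.0826.

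Around the exit of the tunnel through which the new protein leaves, 3 of 7 members passed: Rpl17, Rpl23a, the docking site of the signal recognition particle, and Rpl39. For scale, 39 of all 82 tested members and 9.72% of all genes tested were called lower. All 7 had negative fold changes, with a median of -0.28. Rpl39, which lines the tunnel wall, had 477, 484 and 507 CPM in hypoxia, against 641, 599 and 548 CPM in normoxia, without overlap (log2 fold change -0.28 ± 0.08, SE; adjusted p by edgeR = 0.0352). Its call was lost on leaving out any single library other than normoxia replicate 3, or both replicate 1 libraries together, and when scaled by library size alone (adjusted p between 0.0566 and 0.139; 0.00397 to 0.139 over all alternatives). Rpl3, which reaches toward the centre that joins amino acids, had 1440, 1650 and 1795 CPM in hypoxia, against 2068, 2045 and 2195 CPM in normoxia. The groups did not overlap (-0.37 ± 0.09; adjusted p by edgeR = 0.0204), and the call was lost without hypoxia replicate 1 or 2 or normoxia replicate 2 or 3 (adjusted p = 0.0694, 0.0795, 0.0545 and 0.0592; 0.000468 to 0.0795 over all alternatives). Rpl10, a late-joining protein close to the bound tRNAs, had 954, 824 and 825 CPM in hypoxia, against 1215, 1025 and 977 CPM in normoxia, and missed the threshold (-0.31 ± 0.10; adjusted p by edgeR = 0.0637, with the block 0.000721, 0.000721 to 0.215 over all alternatives).

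In the small subunit, 7 of 13 proteins of the head passed, with a median of -0.28, and at the mRNA exit 3 of 4 passed, with a median of -0.34. Of all 82 tested members 39 passed, and 9.72% of all genes tested were called lower. These groups are small and were set after values were seen, so no difference between regions of the ribosome is drawn from them. Rpsa, near the mRNA exit and also known as a laminin receptor at the cell surface, had 2310, 2270 and 2430 CPM in hypoxia, against 3097, 2761 and 2992 CPM in normoxia. The ranges were apart (log2 fold change -0.34 ± 0.08, SE; adjusted p by edgeR = 0.0144), and of the alternatives run, only leaving out hypoxia replicate 2 lost the call (adjusted p = 0.0846; 0.000257 to 0.0846 over all alternatives). Rps6, the small subunit protein phosphorylated downstream of mTORC1, had 1396, 1339 and 1479 CPM in hypoxia, against 1875, 1824 and 1859 CPM in normoxia, and was also lower (-0.40 ± 0.07; adjusted p by edgeR = 0.00484). Rps27a, made as a fusion with ubiquitin, had 830, 903 and 971 CPM in hypoxia, against 1144, 1167 and 1233 CPM in normoxia (-0.39 ± 0.08; adjusted p by edgeR = 0.00934; lost without hypoxia replicate 2 at 0.0522, 6.83e-05 to 0.0522 over all alternatives). Rps3, Rps6, Rps27a, Rps21, Rpl26, Rpl24, Rps25, Rpl5, Rpl11 and Rpl12 were chosen after their values were seen.

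The most abundant members per kilobase of transcript were Rpl13a at 3560, Rps18 at 2828, Rps2 at 2619 and Rplp0 at 2606 CPM per kilobase, averaged over the 6 libraries. Rpl13a, which outside the ribosome is part of an interferon-responsive translation silencer in human cells, had 1677, 1497 and 1604 CPM in hypoxia, against 2127, 1783 and 1884 CPM in normoxia. The libraries did not overlap, yet the log2 fold change of -0.28 ± 0.09 (SE) stayed just outside the threshold (adjusted p by edgeR = 0.0546, with the block 0.00148, 0.00148 to 0.223 over all alternatives). Rps18, of the head, had 1163, 1431 and 1579 CPM in hypoxia, against 1492, 1739 and 1820 CPM in normoxia. Its groups overlapped, with replicate 1 the lowest library of each, and the log2 fold change of -0.28 ± 0.12 passed only with the replicate block (adjusted p by edgeR = 0.143, and 0.00151 with the block; 0.00151 to 0.395 over all alternatives).

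The threshold cut through members with like values. Rpl22l1 was the last inside (log2 fold change -0.38 ± 0.12, SE; adjusted p by edgeR = 0.047). Rpl14 was the first outside, with 515, 618 and 681 CPM in hypoxia and 682, 811 and 870 CPM in normoxia (-0.38 ± 0.12; adjusted p by edgeR = 0.0519, and 0.000112 with the replicate block, 0.000112 to 0.167 over all alternatives). The values closest to 0 among standard members were those of Rpl24, at an intersubunit bridge, at -0.10 ± 0.08, and of Rps25, of the head and required for initiation at several viral internal ribosome entry sites, at -0.12 ± 0.09 (SE; adjusted p by edgeR = 0.406 and 0.395). Rpl24 averaged 536 ± 30.4 CPM in hypoxia and 574 ± 12.3 CPM in normoxia, and Rps25 averaged 579 ± 53.5 CPM in hypoxia and 631 ± 43.2 CPM in normoxia (SD, n = 3 each), and in both the groups overlapped.

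Replicate 1 stood apart in both groups and did so unevenly over the members. Hypoxia replicate 1 was below the mean of the other hypoxia libraries in 73 of 82 members, and normoxia replicate 1 below the other normoxia libraries in 55. The sizes of these deviations had a Spearman correlation of 0.82 over the 82 members, a description of genes that share libraries. Rps21, a small subunit protein, had the largest such deviation among the hypoxia libraries, with 216, 354 and 370 CPM in hypoxia and 321, 397 and 408 CPM in normoxia. Rpl26, at the tunnel exit, had 526, 783 and 848 CPM in hypoxia and 730, 909 and 985 CPM in normoxia. In both, the replicate 1 library was the lowest of its group, and each hypoxia library was below the normoxia library of the same number. Neither passed the threshold (adjusted p by edgeR = 0.361 for Rps21 and 0.283 for Rpl26), and both did with the replicate block (0.0104 and 0.00235; 0.0104 to 0.826 for Rps21 and 0.00235 to 0.674 for Rpl26 over all alternatives). Without both replicate 1 libraries, 36 members were called lower, against 9.37% of all genes tested, and the median was -0.25.

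**Figure D3:**
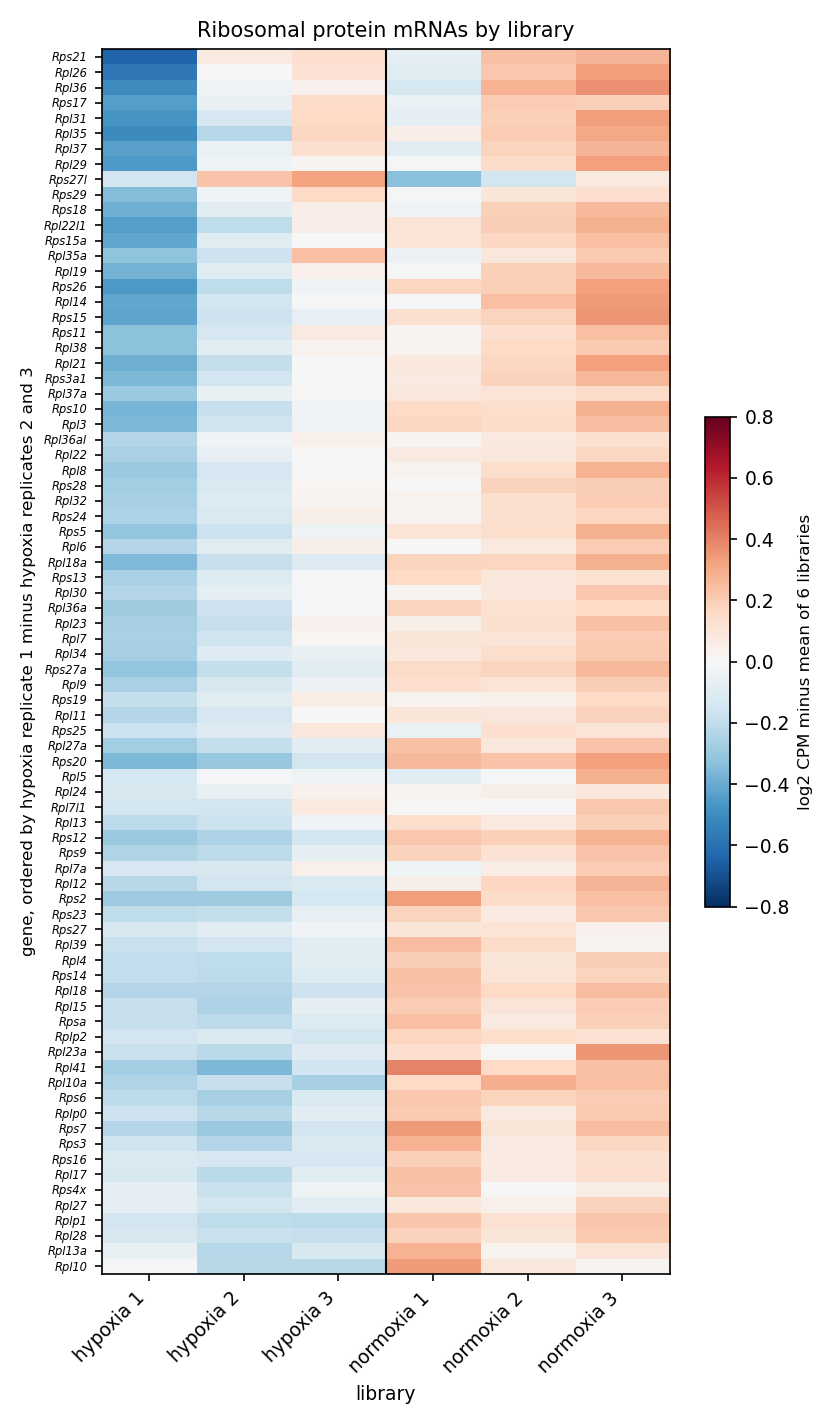
Level of each ribosomal protein gene (rows) in each library (columns, hypoxia left and normoxia right) as log2 CPM minus the gene's mean over the 6 libraries; blue is below and red above the mean, and not every gene is drawn (Rpl39l, Rpl3l and Rpl10l are among those left out). The hypoxia columns are mostly below and the normoxia columns mostly above each gene's mean, and Rps27l runs the other way.

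The paralogs did not follow 1 pattern. Of the 7, 5 were tested and 1, Rpl22l1, was called lower, with a median of -0.15 over the 5. Rps27l, a paralog of Rps27 that is induced by p53 in mouse and human cells, was the only tested member with a positive fold change. It had 84.4, 109 and 117 CPM in hypoxia, against 74.1, 84.2 and 98.4 CPM in normoxia. Each hypoxia library exceeded the normoxia library of the same number, while the groups as a whole overlapped. The log2 fold change was 0.27 ± 0.13 (SE; adjusted p by edgeR = 0.184), with 0.00149 under the replicate block and 0.0359 without both replicate 1 libraries, over a range of 0.00149 to 0.46.

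Rps27 itself, a zinc-finger protein of the small subunit, had 439, 453 and 472 CPM in hypoxia, against 514, 519 and 493 CPM in normoxia (log2 fold change -0.16 ± 0.07, SE; adjusted p by edgeR = 0.149, and 0.0304 with the replicate block, 0.0304 to 0.453 over all alternatives). The groups did not overlap. The first 60 coding bases of both genes are shown because they are what lets reads of the paralogs be told apart: 18 positions differ, written in capitals, and over the aligned coding sequence 76.2% of 252 bases were identical (GENCODE M21 transcripts, coding strand, Rps27 on chromosome 3 and Rps27l on chromosome 9).
Rps27: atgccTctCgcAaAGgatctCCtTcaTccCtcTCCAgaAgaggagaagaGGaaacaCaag
Rps27l: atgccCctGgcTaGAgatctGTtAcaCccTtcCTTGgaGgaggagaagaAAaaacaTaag
Rps27l stood at a geometric mean of 22.5% of the level of Rps27 in hypoxia and 16.7% in normoxia, in CPM.

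Rpl22l1, whose mRNA is repressed by its paralog Rpl22 in mice, had 126, 149 and 178 CPM in hypoxia, against 184, 196 and 208 CPM in normoxia. The groups did not overlap, and the call was lost in 6 alternatives, among them leaving out hypoxia replicate 1 or 2 or normoxia replicate 2 or 3 (adjusted p between 0.116 and 0.157; 0.000471 to 0.157 over all alternatives). Rpl22, needed for the development of alpha-beta T cells in mice, had 255, 291 and 305 CPM in hypoxia, against 320, 324 and 343 CPM in normoxia, with a log2 fold change of -0.21 ± 0.09 (SE; adjusted p by edgeR = 0.111, and 0.00754 with the replicate block, 0.00754 to 0.337 over all alternatives). The level of Rpl22l1 relative to Rpl22 was 52.9% in hypoxia and 59.6% in normoxia.

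Rpl36a had 203, 220 and 245 CPM in hypoxia, against 280, 269 and 276 CPM in normoxia, and was lower without overlap (log2 fold change -0.30 ± 0.08, SE; adjusted p by edgeR = 0.03). Its paralog Rpl36al, with 87.7% identity over the coding sequence, had 153, 177 and 186 CPM in hypoxia, against 183, 191 and 197 CPM in normoxia, and its groups overlapped (-0.15 ± 0.09; adjusted p by edgeR = 0.276, and 0.0409 with the replicate block, 0.0409 to 0.66 over all alternatives). The call of Rpl36a was lost in 8 alternatives, among them leaving out hypoxia replicate 1 or 2, normoxia replicate 2 or 3 or both replicate 1 libraries (adjusted p between 0.0538 and 0.133; 0.0018 to 0.133 over all alternatives). Rpl36al relative to Rpl36a was 77.2% in hypoxia and 69.1% in normoxia, and this was the only one of the 4 ratios examined in which the groups did not overlap.

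Rpl7, of the large subunit, had 1048, 1123 and 1264 CPM in hypoxia, against 1337, 1343 and 1444 CPM in normoxia (log2 fold change -0.26 ± 0.09, SE; adjusted p by edgeR = 0.0633, and 0.00214 with the replicate block, 0.00214 to 0.225 over all alternatives). Its distant relative Rpl7l1, a factor of large subunit assembly, had 92.2, 91.7 and 108 CPM in hypoxia, against 103, 102 and 119 CPM in normoxia (-0.15 ± 0.09; adjusted p by edgeR = 0.299, and 0.0218 with the replicate block, 0.0218 to 0.665 over all alternatives). The groups of Rpl7 did not overlap and those of Rpl7l1 did. Two-sided exact permutation tests of the 4 log2 ratios between paralog and main gene gave p = 0.1 for Rpl36al over Rpl36a and p = 0.2 for the other 3, all 0.2 after Benjamini-Hochberg adjustment over the 4, and none can go below 0.1 in this design. Between libraries of the same number, each ratio differed in the same direction in all 3 pairs: by 0.42, 0.57 and 0.31 for Rps27l over Rps27, by 0.21, 0.18 and 0.09 for Rpl36al over Rpl36a, by 0.20, 0.11 and 0.05 for Rpl7l1 over Rpl7, and by -0.22, -0.24 and -0.06 for Rpl22l1 over Rpl22, as log2 ratios in hypoxia minus normoxia.

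**Figure D4:**
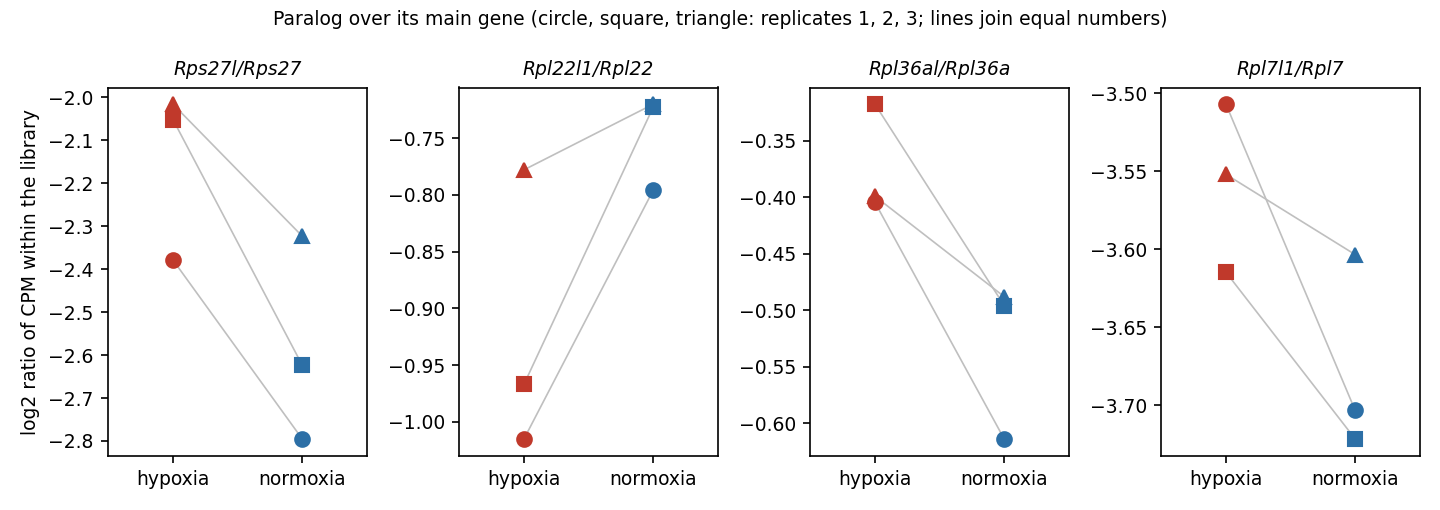
Log2 ratio of CPM of each paralog over its main gene (y axis, a separate range in each panel) in hypoxia and normoxia; each symbol is a library and lines join libraries of the same replicate number. Only for Rpl36al over Rpl36a do the hypoxia and normoxia libraries lie apart (77.2% in hypoxia and 69.1% in normoxia on average).

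Rps4x, the X-linked form of a small subunit protein, had 1775, 1645 and 1812 CPM in hypoxia, against 2187, 1868 and 1941 CPM in normoxia. The libraries did not overlap, and the log2 fold change of -0.20 ± 0.09 (SE) missed the threshold (adjusted p by edgeR = 0.144, and 0.0163 with the replicate block, 0.0163 to 0.432 over all alternatives). The paralogs known from testis and striated muscle were near or at 0. Rpl39l, testis-enriched in mouse, had 0.105, 0.225 and 0.107 CPM in hypoxia and 0.133, 0.326 and 0.292 CPM in normoxia, with overlapping groups (log2 fold change -0.78 ± 0.47, SE; adjusted p by edgeR = 0.28). Rpl3l, the muscle form of Rpl3, reached at most 0.052 CPM in hypoxia and 0.019 CPM in normoxia. Rpl10l, which takes the place of the X-linked Rpl10 in mouse spermatocytes, had a count of 0 in all 6 libraries, which allows up to 3 counts or 0.0544 CPM in a library.

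Many ribosomal protein genes have processed pseudogenes, intronless copies of their mRNA, and estimated counts are divided between near-identical sequences. By sequence, 1178 pseudogene features matched a member at 90% identity or more over at least 50% of the pseudogene transcript, and 81 members had at least 1. Together the counts of these features equalled 8.96% to 9.32% of the member counts in hypoxia and 9.34% to 9.51% in normoxia. In 66 members the copies held under 1% of the joint counts of the member and its copies, in 15 over 10%, and in 3 over 50%: Rpl5, Rpl12 and Rpl27a. Of the 169 copies that could be tested, 11 (6.51%) were called lower and 0 higher by edgeR, against 9.72% and 11.2% of all genes tested. Only 21 of the 1178 features averaged over 10 CPM, so most tested copies had low counts. The copies with the highest counts, Gm10275, Gm15500, Rpl10-ps3 and Gm7536, were among those called lower (adjusted p by edgeR = 0.00512, 0.0454, 0.0265 and 0.0107). Rps23-ps1, also abundant, was not (0.0869).

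Rpl5 binds the 5S rRNA together with Rpl11, and both hold back the p53 inhibitor Mdm2 when ribosome assembly fails. As deposited, Rpl5 had 35.6, 39.0 and 38.2 CPM in hypoxia, against 36.9, 39.0 and 47.7 CPM in normoxia, and its groups overlapped (log2 fold change -0.13 ± 0.10, SE; adjusted p by edgeR = 0.402). The pseudogene Gm15500 held 976, 1094 and 1276 CPM in hypoxia, against 1387, 1372 and 1439 CPM in normoxia. The first 60 coding bases of Rpl5 (chromosome 5) and bases 73 to 132 of the Gm15500 transcript (chromosome 7), both from GENCODE M21, are shown because no base tells them apart.
Rpl5: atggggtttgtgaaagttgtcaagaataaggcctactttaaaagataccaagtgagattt
Gm15500: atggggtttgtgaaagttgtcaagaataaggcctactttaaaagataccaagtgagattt
Summed with all its copies, which held 97.0% of the joint counts, Rpl5 had a log2 fold change of -0.32 ± 0.10 (SE; adjusted p by edgeR = 0.0453; 0.0453 to 0.925 over all alternatives). Rpl11, whose copies are rarely counted, had 575, 616 and 674 CPM in hypoxia, against 721, 719 and 768 CPM in normoxia, and missed the threshold without overlap (-0.24 ± 0.08; adjusted p by edgeR = 0.0654, and 0.00298 with the replicate block, 0.00298 to 0.227 over all alternatives).

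Rpl12, at the base of the stalk, had 60.1, 63.5 and 64.4 CPM in hypoxia, against 72.4, 79.0 and 84.6 CPM in normoxia, while its copy Gm10275 held 1189, 1147 and 1178 CPM in hypoxia, against 1590, 1455 and 1571 CPM in normoxia. Both were lower without overlap, with log2 fold changes of -0.33 ± 0.08 for Rpl12 and -0.39 ± 0.07 for Gm10275 (SE; adjusted p by edgeR = 0.0136 and 0.00512). Summing each member with its copies by sequence gave 42 members called lower and 0 higher, against 10.0% and 11.5% of all genes tested: Rpl5, Rpl10 and Rpl14 were among those gained and Rpl36a was lost (adjusted p by edgeR = 0.0538). The difference in share of counts was then -1.26 points. This summing was added after the data were seen.

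**Figure D5:**
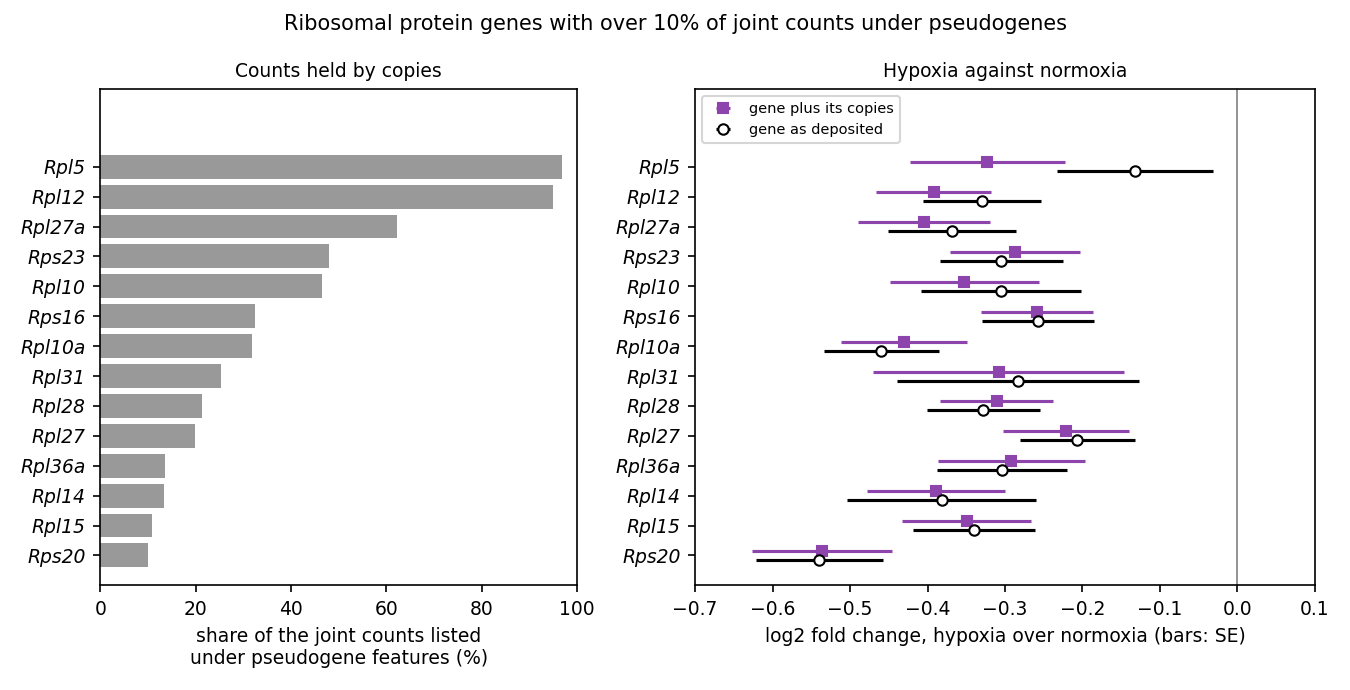
Left, the share of joint counts (%) listed under pseudogene features for members where it exceeded 10% (not every one is drawn); right, log2 fold change of hypoxia over normoxia with standard errors for the gene as deposited (open circles) and summed with its copies (squares). Rpl5 moves most on summing, from -0.13 as deposited to -0.32 with its copies.

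The other genes of the ribosome pathway, 123 genes in 6 lists, had 21 called lower and 0 called higher by edgeR, against 9.72% and 11.2% of all genes tested. With the replicate block 59 were lower and 7 higher, against 20.0% and 19.2% of all genes tested. Of 3 ribosomal proteins with other names, Rack1, a small subunit protein and signalling scaffold, averaged 1664 ± 81.5 CPM in hypoxia and 2059 ± 104 CPM in normoxia (SD, n = 3 each; log2 fold change -0.31 ± 0.08, SE; adjusted p by edgeR = 0.0218; lost without hypoxia replicate 1 or 2, 0.000687 to 0.128 over all alternatives). Fau, made as a fusion with a ubiquitin-like protein, had a log2 fold change of -0.08 ± 0.08 (SE; adjusted p by edgeR = 0.548) that turned to 0.0026 when scaled by library size alone. Fau averaged 489 ± 28.5 CPM in hypoxia and 516 ± 27.6 CPM in normoxia (SD, n = 3 each).

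Of 17 other RNAs with a TOP motif, most of them mRNAs for translation factors, 8 were called lower and 0 higher, with a median of -0.27. Over all genes tested 9.72% were called lower and 11.2% higher. Eef1g, a subunit of the elongation factor 1 complex, averaged 919 ± 55.7 CPM in hypoxia and 1293 ± 89.9 CPM in normoxia (log2 fold change -0.49 ± 0.09, SE; adjusted p by edgeR = 0.00316). Npm1, a nucleolar chaperone, averaged 1143 ± 101 CPM in hypoxia and 1614 ± 122 CPM in normoxia (SD, n = 3 each; -0.50 ± 0.09; adjusted p by edgeR = 0.00481). Both passed in every alternative, and the other 6 called were Eef1a1, Eef1b2, Eef2, Pabpc1, Hnrnpa1 and the noncoding RNA Gas5. The RefSeq starts of 11 of the 17 held the pyrimidine run in 54.5%, and CTTCCG in 27.3%.

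Of 48 ribosome biogenesis factors, 4 were called lower and 0 higher, with a median of -0.18, a share of lower calls no higher than the 9.72% of all genes tested. With the replicate block 27 were called lower and 0 higher, against 20.0% and 19.2% of all genes. The 4 were Npm1, Bysl, Nob1 and Eif6, the last 3 acting in the final maturation of the small or large subunit. Bysl averaged 24.5 ± 1.70 CPM in hypoxia and 31.8 ± 3.66 CPM in normoxia (SD, n = 3 each; log2 fold change -0.37 ± 0.10, SE; adjusted p by edgeR = 0.0237), and lost its call in 5 alternatives (0.000426 to 0.126 over all). Of 15 genes of RNA polymerase I, which transcribes the ribosomal RNA genes, and its factors, 3 were called lower and 0 higher. The shares over all genes tested were 9.72% and 11.2%. With the replicate block 8 of the 15 were lower and 1, Twistnb, higher, against 20.0% and 19.2% of all genes. Polr1c, a subunit shared with RNA polymerase III, averaged 48.4 ± 1.1 CPM in hypoxia and 70.3 ± 0.513 CPM in normoxia (-0.54 ± 0.06; adjusted p by edgeR = 0.000366, under 0.05 in every alternative). Znrd1, a further polymerase I subunit, averaged 22.8 ± 1.31 CPM in hypoxia and 28.7 ± 2.22 CPM in normoxia (-0.33 ± 0.09; adjusted p by edgeR = 0.0228; 0.00122 to 0.122 over all alternatives, lost without hypoxia replicate 2 or 3, normoxia replicate 2 and when scaled by library size alone).

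Of 29 genes of the mTORC1 and LARP1 control of TOP mRNAs, 3 were called lower and 0 higher, with a median of -0.01, a share of lower calls close to the 9.72% of all genes tested. With the replicate block 7 were lower and 4 higher, against 20.0% and 19.2% of all genes. Eif4ebp1, an inhibitor of cap-dependent translation that mTORC1 inactivates, had 25.0, 22.7 and 21.8 CPM in hypoxia, against 52.8, 41.1 and 40.1 CPM in normoxia (log2 fold change -0.95 ± 0.11, SE; adjusted p by edgeR = 0.000416). Ddit4, an inhibitor of mTORC1 known as a hypoxia-induced gene in many cell types, had 81.0, 78.6 and 77.0 CPM in hypoxia, against 139, 114 and 106 CPM in normoxia, and was lower (-0.60 ± 0.10; adjusted p by edgeR = 0.00244). Larp1, which binds TOP mRNAs, stabilises them and holds back their translation, averaged 305 ± 13.1 CPM in hypoxia and 396 ± 5.98 CPM in normoxia (SD, n = 3 each; -0.38 ± 0.07; adjusted p by edgeR = 0.00518). In all 3 the groups were apart, and all passed in every alternative; Larp1 was chosen after its values were seen. Of 12 genes of ribosome rescue and quality control, 3 were called lower and 0 higher, against 9.72% and 11.2% of all genes tested. The 3 were Ascc3, a helicase that splits collided ribosomes, Hbs1l, a partner of the rescue factor Pelo, and Zfp598, the sensor of collided ribosomes. With the replicate block 6 of the 12 were lower and 2, Pelo and Abce1, higher, against 20.0% and 19.2% of all genes. Ascc3 averaged 49.3 ± 4.43 CPM in hypoxia and 64.3 ± 1.65 CPM in normoxia, and Hbs1l averaged 63.8 ± 4.91 CPM in hypoxia and 80.5 ± 1.44 CPM in normoxia (SD, n = 3 each; log2 fold changes -0.38 ± 0.08 and -0.34 ± 0.07, SE; adjusted p by edgeR = 0.00758 and 0.0107). Both lost their call without hypoxia replicate 2 (adjusted p = 0.055 and 0.0653; 0.000163 to 0.055 and 0.000342 to 0.0653 over all alternatives).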

How the data were processed

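Messenger RNA of 6 libraries, made with a strand-specific kit per the labels' protocols, was quantified by the authors. The submitters' processing notes name Trim Galore 0.6.4, kallisto 0.4.6, edgeR 3.17 and the build GRCm39. The authors deposited estimated counts per Ensembl gene, of which 69.4% were whole numbers, and log2 CPM; the deposited log2 CPM equal edgeR's log CPM of the deposited estimated counts with a prior count of 2 (largest difference 0) and were not used further. Estimated counts were rounded to whole numbers. CPM in the text use the library size multiplied by its TMM factor, while shares of counts use the library total.

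Symbols and biotypes came from GENCODE M21 (GRCm38), used for names and transcript sequences only; 52029 of 56953 gene IDs had a symbol. Low genes were removed by filterByExpr (at least 10 counts, total at least 15). Libraries were scaled by TMM and tested with glmQLFit and glmQLFTest (edgeR 4.0.16, R 4.3.3) without covariates, with Benjamini-Hochberg adjustment over all 15591 genes tested and a threshold of 0.05. The fit was tested on simulated data. It recovered 45.4% of 1.5-fold and 75.5% of 2-fold changes and called 9 of 15101 unchanged genes, so changes can be missed. The changed genes were drawn at random over all levels, and the simulated libraries had no replicate effect. Recovery of smaller changes in abundant genes, such as those of the called members, was not tested. Pseudogene copies were found with blastn 2.17.0. Start regions came from RefSeq (GRCm38.p6).

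Hypoxia and normoxia libraries with the same number departed from their group means together (r = 0.467, 0.332 and 0.298, all above 0.1). Between different numbers r was -0.35 to 0.118, and hypoxia 2 with normoxia 3 (0.118) also exceeded 0.1. The numbers were taken to pair the libraries, and block results are given where they change a call. Libraries of a group differed by more than counting noise (mean chi-square per gene 12.4 to 59.2).

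The members, gene lists and tests were chosen with earlier results of these data known, and the roles within the ribosome after values were seen. Named were the 8 largest called changes each way with at least 5 CPM, the 4 most abundant members per kilobase, the stalk proteins and Rpsa, paralog pairs, the members on either side of the threshold, the 2 genes with the smallest p of each other list, and Fau and Rack1; some named genes are not reported here, and others are marked as chosen after their values were seen. Alternatives were DESeq2 1.42.0 (size factors, Wald test), scaling by library size, no or a stricter filter (minimum count 50), the replicate block, leaving out libraries, and summing members with their pseudogenes.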

Additional observations from a re-analysis of the deposited data

How the results depend on the processing

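Of the 82 tested members 81 had a negative log2 fold change in the main analysis and under every alternative that tested all 82. With the replicate number as a block, 75 members were lower and 1 higher, 2988 genes were higher and 3120 lower, and other pathway genes numbered 7 higher and 59 lower; the block lowered the biological coefficient of variation to 5.64%, against 10.9% without it. With libraries scaled by size alone, 25 members were lower with a median of -0.21, 998 genes were lower, and 2 other pathway genes were higher and 13 lower; this scaling moved the median of all genes to 0.08 and the share of calls that were higher to 70.5%, against 53.5% with TMM, and Fau reversed to 0.0026. Without a filter 1 other pathway gene was higher. Without both replicate 1 libraries 1 member, Rps27l, was higher. Leaving out each library in turn gave 1146 to 1980 genes higher, 804 to 1636 lower, 10 to 44 members lower and 0 higher, 8 to 30 other pathway genes lower and 0 higher, a member median of -0.36 (without hypoxia replicate 3) to -0.24, and a difference in share of counts of -1.33 to -0.92 points. DESeq2's size factors and Wald test, the stricter filter, no filter and summing with pseudogenes by name or by sequence gave 38 to 51 members lower, 0 higher and medians of -0.30 to -0.28. Of 52 genes named, 15 were called and stayed past the threshold in every alternative; over all genes and alternatives 682 values kept direction and side of the threshold, 58 lost the call, 36 gained it and 2 reversed.

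The design has 3 libraries a group, so no exact test can go below 0.1, and calls near the threshold depend on single libraries. Estimated counts cannot separate members from identical copies, which limits Rpl5, Rpl12 and Rpl27a most. CPM are relative to the scaled size of a library and do not show total ribosomal protein mRNA per cell. Rpl3l, Rpl10l and Rpl39l were too low for a comparison at this depth.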
